A study of Mus musculus with 16 samples.

Results

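Macrophages that clear worn-out red blood cells express a set of iron recycling genes beside the genes that most macrophages share. The transcripts described here are 10 genes of 18194 that had a probe of their own on the array, and they were measured by 16 probes. Cd5l, Hmox1, Spic, Slc40a1, Vcam1 and Cd163 made up the iron recycling members. C1qa, C1qb, C1qc and Aif1 made up the general macrophage members. The genes were chosen around Cd5l and Hmox1, whose higher level at 12 than at 4 weeks of age was already known from these arrays. The differences between the ages are therefore given as a description. Where members are counted past the threshold used for all genes, the count describes the genes chosen and is no test of them. A probe counted as a member when the array's annotation gave a member as its only gene symbol, and all 16 probes of the 10 genes were bright enough to be tested.

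Each array held the RNA of 1 whole left cochlea of 1 male DBA/2J mouse, a strain that loses its hearing early and carries alleles of Cdh23 and Fscn2 linked to that loss in every group. The M+V group (n = 6) was 12 weeks old and had been given a daily subcutaneous dose of methionine (MET, 500 mg/kg), a source of methyl groups, together with valproic acid (VPA, 300 mg/kg), a histone deacetylase inhibitor, for 8 weeks. The control group (n = 5) was also 12 weeks old and had received the vehicle, sodium bicarbonate, over the same 8 weeks. The mice of the 4-week group (n = 5) were taken before any injection, so that age and injection cannot be told apart in a comparison with them. Whole cochleae hold bone and marrow, and in such bulk RNA fewer macrophages and less RNA per macrophage cannot be told apart.

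Spleen, liver and marrow macrophages engulf old red cells and break down their heme. Heme oxygenase (Hmox1) opens the heme ring and frees the iron, ferroportin (Slc40a1) carries the iron out of the cell, and Cd163 takes up hemoglobin bound to haptoglobin. SPI-C (Spic) is a transcription factor required for red pulp macrophages of the mouse spleen, Vcam1 is an adhesion molecule on such macrophages and on endothelium, and Cd5l is a secreted macrophage protein. C1qa, C1qb and C1qc encode the chains of C1q, the recognition molecule of the classical complement pathway, and Aif1 encodes the macrophage and microglial protein Iba1.

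RefSeq promoter windows (assembly GRCm38.p6, 250 bases before and 50 after the start of transcription) matched 6 of the 10 genes, namely Cd5l, Spic, Cd163, C1qb, C1qc and Aif1. Hmox1, Slc40a1, Vcam1 and C1qa are only named. Since SPI-C and the macrophage factor PU.1 bind the core GAGGAA, and heme-responsive genes are controlled through the antioxidant response element with the core TGACNNNGC, the windows of all 6 were searched for these letters on both strands. The 250 bases upstream of 2 members of each kind are shown here, with the matches in capitals. They comprise Cd5l (chr3:87357631-87357880, plus strand), Cd163 (chr6:124304401-124304650, plus strand) and the neighboring C1qb (chr4:136886201-136886450) and C1qc (chr4:136892915-136893164), both on the minus strand.
Cd5l: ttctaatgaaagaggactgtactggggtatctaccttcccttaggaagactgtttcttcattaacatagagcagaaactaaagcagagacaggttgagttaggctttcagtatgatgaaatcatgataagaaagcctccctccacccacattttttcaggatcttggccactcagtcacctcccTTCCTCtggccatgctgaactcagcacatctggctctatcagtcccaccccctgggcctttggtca
Cd163: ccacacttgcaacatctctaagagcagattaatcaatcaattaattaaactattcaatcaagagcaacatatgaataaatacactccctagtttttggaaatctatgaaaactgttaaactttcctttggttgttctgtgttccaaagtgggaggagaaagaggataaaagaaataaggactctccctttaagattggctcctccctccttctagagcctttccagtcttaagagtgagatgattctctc
C1qb: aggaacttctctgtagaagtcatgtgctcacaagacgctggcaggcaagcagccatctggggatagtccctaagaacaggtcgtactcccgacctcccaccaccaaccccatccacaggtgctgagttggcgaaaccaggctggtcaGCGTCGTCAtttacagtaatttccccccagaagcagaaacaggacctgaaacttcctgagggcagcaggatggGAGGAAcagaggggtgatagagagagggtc
C1qc: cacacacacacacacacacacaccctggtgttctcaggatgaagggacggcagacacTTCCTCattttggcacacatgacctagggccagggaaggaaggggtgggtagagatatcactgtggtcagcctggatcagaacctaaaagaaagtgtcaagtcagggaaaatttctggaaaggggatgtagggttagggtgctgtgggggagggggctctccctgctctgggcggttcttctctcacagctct
GAGGAA or its complement was present in 4 of the 6 windows (Cd5l, C1qb, C1qc and Aif1), whereas 28.1% of all 32544 promoter windows of this length held it. In Cd5l the match began 66 bases before the start and in C1qb 30 bases before it. The 6 windows held TGACNNNGC once, in C1qb, against 12.4% of all windows. TGAGTCA, the core shared by Maf recognition and AP-1 elements, was found in 0 of the 6 windows and in 5.19% of all windows. GAGGAA overlaps neither of the other motifs in these windows. A match of letters is a description of the sequence and does not show a binding site.

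The values are log2 signals with the same median (6.90) in every array, and a difference of 1 is a 2-fold change. Of 7 genes known from the cochlea, 5 were above the median in all 16 arrays, among them Coch (14.8 to 15.4) and Otos (13.8 to 14.9), whereas Tecta was above it in 10 arrays and the outer hair cell gene Slc26a5 in 0. A bacterial hybridization control, bioB, parted the arrays into those with a high level (9.02 to 9.74: M+V replicates 1 and 2, control replicate 1 and all 5 arrays at 4 weeks) and those with a low level (5.98 to 6.36: the other 4 M+V and 4 control arrays). Age and bioB level thus largely went together, which limits every difference from 4 weeks. For most members those differences are given without a matched bioB level. M+V replicate 1 stood apart from the other 15 arrays. Of the 15 erythroid marker genes tested, 12 lay below the array median in it and 0 in any other array. Slc4a1, the red cell anion exchanger, had a level of 5.22 there and 12.5 to 13.5 in the other arrays, and Klf1, the erythroid transcription factor, had 2.88 against 11.2 to 12.3. Among markers of the macrophage lineage, Csf1r was 13.9 in that array against 12.8 to 13.3 elsewhere, and Cd68 was 11.9 against 9.17 to 10.1. The mean of the 6 osteoclast markers tested, each relative to its mean over all arrays, was 2.23 there and -0.66 to 0.31 elsewhere. The general macrophage marker Adgre1 was within the range of the other arrays (9.61 against 9.27 to 10.1) and was detected in all groups.

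Cd5l differed most between the ages. In the M+V-treated cochleae its log2 signal had a lowest value of 8.10, a median of 8.98 and a highest value of 9.48. In the control cochleae it was 9.11, 9.11, 9.51, 9.93 and 9.43, and at 4 weeks it was 6.00, 7.26, 7.21, 6.70 and 6.24. Every cochlea at 12 weeks lay above every cochlea at 4 weeks, whereas the M+V-treated and control values overlapped, with 4 of the 6 M+V-treated cochleae below all 5 controls. The level in M+V-treated cochleae was 4.78-fold that at 4 weeks (log2 fold change 2.26, SE 0.26), and the level in control cochleae was 6.65-fold that at 4 weeks (2.73, SE 0.27). Among the arrays with a high bioB level alone, the log2 differences from 4 weeks were 2.20 (SE 0.34) for M+V and 2.43 (SE 0.45) for the single control array.

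Hmox1 was the other member whose groups parted by age. Its log2 signal in the M+V-treated cochleae was 6.58 at the lowest, 7.26 at the median and 7.72 at the highest. The control cochleae had 7.02, 6.92, 7.27, 8.44 and 8.11, and those at 4 weeks had 5.72, 6.37, 5.38, 5.80 and 5.70. All cochleae at 12 weeks again lay above those at 4 weeks, and control replicates 4 and 5 were the highest of all. The level was 2.77-fold that at 4 weeks in M+V-treated cochleae (log2 fold change 1.47, SE 0.27) and 3.38-fold in control cochleae (1.76, SE 0.29). With the high bioB arrays alone these log2 differences were 1.62 (SE 0.26) for M+V and 1.22 (SE 0.34) for the single control array.

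**Figure D1:**
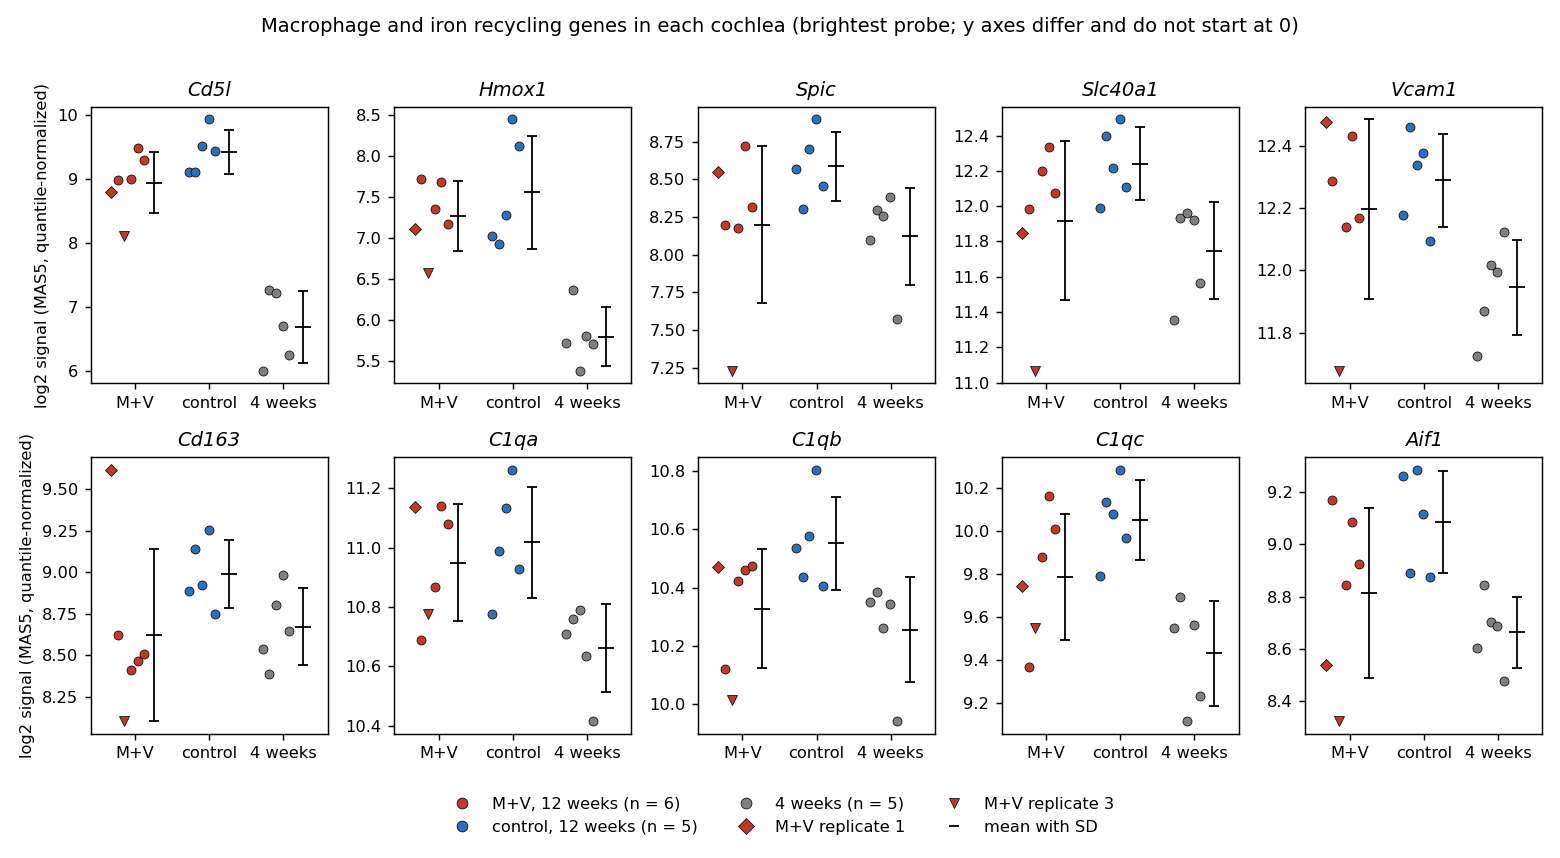
Log2 signal of the brightest probe of each of the 10 genes (1 panel a gene) in each cochlea of the M+V, control and 4 weeks groups. Points are single arrays and bars are group means with the SD; in the panels of Cd5l and Hmox1 all 11 cochleae at 12 weeks lie above the 5 at 4 weeks, and in the other 8 panels the M+V points overlap both other groups.

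The other iron recycling members differed less between the ages. Ferroportin (Slc40a1) had 11.07, 12.03 and 12.34 as its lowest, median and highest log2 signal in M+V-treated cochleae, against 11.99, 12.40, 12.21, 12.49 and 12.11 in control cochleae and 11.36, 11.93, 11.96, 11.92 and 11.56 at 4 weeks. The control cochleae were all above those at 4 weeks, and the M+V-treated cochleae spanned both groups. M+V replicate 3 had the lowest value of all 16 arrays, and M+V replicate 1 (11.85) also lay in the range at 4 weeks and below every control cochlea. The log2 difference from 4 weeks was 0.17 (SE 0.19) for M+V and 0.49 (SE 0.20) for control.

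Spic had a lowest log2 signal of 7.23, a median of 8.26 and a highest signal of 8.72 in M+V-treated cochleae. Its signals were 8.57, 8.30, 8.70, 8.90 and 8.46 in control cochleae and 8.10, 8.30, 8.26, 8.38 and 7.57 at 4 weeks. All 3 groups overlapped, with 4 of the 5 control cochleae above every cochlea at 4 weeks. The difference from 4 weeks was 0.08 (SE 0.22) for M+V and 0.46 (SE 0.23) for control on the log2 scale.

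Vcam1 was 11.68, 12.23 and 12.47 at the lowest, median and highest in M+V-treated cochleae, 12.18, 12.46, 12.34, 12.38 and 12.09 in control cochleae, and 11.73, 11.87, 12.02, 11.99 and 12.12 at 4 weeks (log2 signals). Its groups overlapped in every comparison, although 5 of the 6 M+V-treated and 4 of the 5 control cochleae exceeded all those at 4 weeks. The log2 difference from 4 weeks was 0.25 (SE 0.13) for M+V and 0.34 (SE 0.13) for control.

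The hemoglobin scavenger receptor Cd163 had log2 signals of 8.88, 9.14, 8.92, 9.25 and 8.75 in control cochleae and 8.54, 8.39, 8.80, 8.98 and 8.64 at 4 weeks. In the M+V-treated cochleae, M+V replicate 1 had 9.62, the highest value of all 16 arrays, and the other 5 ranged from 8.11 to 8.62, below all 5 control cochleae. The M+V-treated mean was 8.62 ± 0.52 (SD, n = 6), against 8.99 ± 0.20 in control cochleae (SD, n = 5) and 8.67 ± 0.23 at 4 weeks (SD, n = 5). Cd163 was the single member whose level in M+V was below that at 4 weeks on average (log2 fold change -0.05, SE 0.20), and this difference became 0.23 (SE 0.23) once the bioB level entered the model as a block and -0.25 without M+V replicate 1.

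Among the general macrophage members, the 3 chains of C1q behaved alike in direction. C1qc had a lowest log2 signal of 9.37, a median of 9.81 and a highest signal of 10.16 in M+V-treated cochleae, against 9.79, 10.13, 10.08, 10.28 and 9.97 in control cochleae and 9.55, 9.69, 9.11, 9.56 and 9.23 at 4 weeks. The control cochleae lay above all those at 4 weeks, and so did 4 of the 6 M+V-treated cochleae. Its log2 difference from 4 weeks was 0.36 (SE 0.15) for M+V and 0.62 (SE 0.15) for control.

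C1qa ran from 10.69 to 11.14 in M+V-treated cochleae with a median of 10.97, and was 10.78, 10.99, 11.13, 11.26 and 10.93 in control cochleae and 10.71, 10.76, 10.79, 10.63 and 10.42 at 4 weeks. C1qb ran from 10.01 to 10.47 in M+V-treated cochleae with a median of 10.44, and was 10.54, 10.43, 10.58, 10.80 and 10.40 in control cochleae and 10.35, 10.38, 10.26, 10.34 and 9.94 at 4 weeks. The control cochleae were all above those at 4 weeks for C1qb and not for C1qa, where control replicate 1 lay just under the highest value at 4 weeks. The log2 differences from 4 weeks were 0.29 (SE 0.11) for C1qa and 0.07 (SE 0.11) for C1qb in M+V, and 0.36 (SE 0.12) and 0.29 (SE 0.12) for the same genes in control.

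Aif1 had 8.32, 8.88 and 9.17 as its lowest, median and highest log2 signal in M+V-treated cochleae, against 9.26, 8.89, 9.29, 9.12 and 8.88 in control cochleae and 8.60, 8.84, 8.70, 8.69 and 8.47 at 4 weeks. The control group did not overlap with the 4-week group, whereas the M+V group did. The log2 difference from 4 weeks was 0.15 (SE 0.14) for M+V and 0.42 (SE 0.15) for control.

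For completeness, the members past the adjusted limma threshold against 4 weeks were Cd5l and Hmox1, the genes around which the set was chosen, in M+V (2.52% of the 11457 genes tested were called higher) and in control (0.402% of all genes). Nothing can be read from these counts, which the choice of genes fixed. In M+V against 4 weeks the groups did not overlap for these 2 genes, with 2.35% of all genes higher without overlap. In control against 4 weeks the groups did not overlap for 6 members (Cd5l, Hmox1, Slc40a1, C1qb, C1qc and Aif1), with 2.22% of all genes higher without overlap. Cd5l and Hmox1, around which the set was chosen, are in both, so the counts without overlap are no test either. They also depend on the probe: with the other probes of Slc40a1 and C1qb, the control and 4-week groups overlapped. The median log2 fold change of the 6 iron recycling members was 0.21 for M+V and 0.48 for control, and that of the 4 general macrophage members was 0.22 for M+V and 0.39 for control. Over all tested genes the median was 0.03 for M+V and 0.01 for control. Both comparisons share the 4-week arrays.

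**Figure D2:**
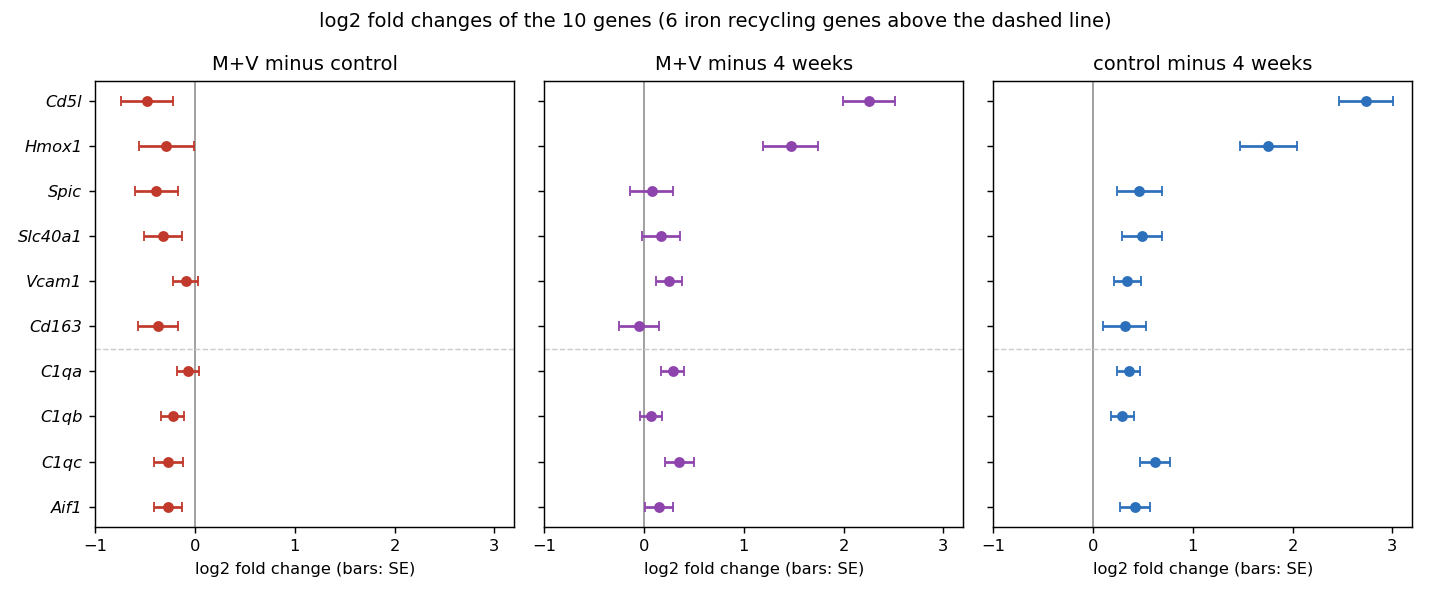
Log2 fold change of each of the 10 genes (brightest probe) in the 3 comparisons of the groups, with bars for the SE from limma over 16 arrays (1 panel a comparison, genes down the page, the 6 iron recycling genes above the dashed line). All 10 points of M+V minus control lie below 0, between -0.48 and -0.07, and Cd5l and Hmox1 stand apart in both comparisons with 4 weeks (log2 fold changes of 1.47 to 2.73).

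The comparison of M+V with control, at a single age, was not what the genes were chosen on. No member passed the adjusted threshold in it, and neither did any other gene, so that 0% of the 11457 genes were called and the lowest adjusted p from limma was 0.327. At an unadjusted p under 0.05, 2096 probes passed with limma, of which 0 were the members' brightest probes, while 3.74% of all genes passed as lower. The methods' t-test also gave 0 of the brightest probes at that level, but the dimmer probe of Spic passed it (log2 fold change -0.56, unadjusted p of 0.0239 by limma and 0.0393 by the methods' t-test, limma adjusted p = 0.466). With the brightest probes, 0 members passed the study's cutoffs of a 1.5-fold change with an unadjusted p under 0.05, which 0.986% of genes passed as lower. The fold changes of all 10 members were below 0, whereas 45.1% of all genes were. The 10 genes vary together from array to array (described below), so their directions are not independent of each other. Marker lists of cell types went both ways in this comparison. Below 0 were 15 of 15 erythroid markers (median -1.25) and 11 of 11 B cell markers (median -0.74). Above 0 were 18 of 27 general macrophage markers (median 0.12) and 7 of 9 monocyte markers (0.23). So were 13 of 14 neutrophil markers (0.15) and 6 of 6 osteoclast markers (0.50). Without M+V replicate 1, 13 of 15 erythroid (median -0.18) and 9 of 11 B cell markers (median -0.29) were below 0, and still 10 of 10 members. The medians of the general macrophage, monocyte, neutrophil and osteoclast markers were then -0.002, -0.005, 0.04 and 0.09. The range of the B cell list mean was -2.40 to 0.33 in M+V-treated and -0.10 to 0.60 in control cochleae, and that of the erythroid list mean was -5.28 to 0.43 and 0.12 to 0.71. Their part in the members' values was not tested.

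The differences ranged from -0.48 to -0.07 on the log2 scale. Cd5l averaged 8.94 ± 0.48 in M+V-treated cochleae (SD, n = 6) and 9.42 ± 0.34 in control cochleae (SD, n = 5), a log2 fold change of -0.48 with a 95% interval of -1.02 to 0.07 and a limma adjusted p of 0.561. Hmox1 averaged 7.27 ± 0.42 in M+V-treated cochleae and 7.55 ± 0.68 in control cochleae (-0.29, interval -0.87 to 0.30, limma adjusted p = 0.753). The interval of Cd5l thus holds both no difference and a level lower by 1 on the log2 scale, and a missed threshold does not show equal levels. For the other iron recycling members the log2 fold changes were -0.39 for Spic (interval -0.85 to 0.07), -0.37 for Cd163 (-0.80 to 0.06), -0.32 for Slc40a1 (-0.72 to 0.08) and -0.09 for Vcam1 (-0.36 to 0.18). The general macrophage members gave -0.27 for Aif1 (-0.57 to 0.03), -0.26 for C1qc (-0.57 to 0.04), -0.22 for C1qb (-0.46 to 0.02) and -0.07 for C1qa (-0.31 to 0.17). Their adjusted p-values from limma ran up to 0.862.

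The median was -0.35 for the iron recycling members and -0.24 for the general macrophage members, against 0.02 for all tested genes. The iron recycling median was -0.36 with the bioB level as a block, -0.49 in the arrays with a low level and 0.06 in those with a high level, which are only 2 M+V arrays (replicate 1 among them) and 1 control array. The general macrophage median was -0.22, -0.21 and -0.24 in the same settings. Within the high-level arrays Hmox1, Vcam1, Cd163 and C1qa were above 0 (0.40, 0.20, 0.23 and 0.14). The part of M+V replicate 1, which is among these arrays and lacks erythroid transcripts, was not tested separately from the bioB level.

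With all 6 M+V arrays, 0 of the 10 members lay below every control array, as 0.288% of all genes did. Without M+V replicate 1, 1 member did, Cd163, where 0.471% of all genes did. This array was set aside after its erythroid values had been seen. The remaining 5 M+V-treated cochleae then averaged 8.42 ± 0.19 (SD, n = 5), the log2 fold change of Cd163 was -0.57 (SE 0.13), and the limma adjusted p was 0.301. In the low-level bioB arrays alone, which leave out M+V replicate 1 as well, it was -0.64 (SE 0.14, limma adjusted p = 0.375). Cd5l (8.79) and Hmox1 (7.11) in M+V replicate 1 were within the range of the other M+V arrays, and their log2 differences from control were -0.45 for Cd5l and -0.25 for Hmox1 without that array.

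Several members had more than 1 probe. The dimmer probe of Spic gave log2 fold changes of -0.56 (M+V against control), 0.03 (M+V relative to 4 weeks) and 0.59 (control relative to 4 weeks), and the dimmer probe of Slc40a1 gave -0.29, 0.17 and 0.47 in the same order. The other 2 probes of C1qb gave -0.21 and -0.28 for M+V against control and 0.56 and 0.44 for control against 4 weeks, so that all probes of these 3 genes had the same direction. The probes of Vcam1 disagreed. One of its dimmer probes gave 0.13 for M+V against control and -0.06 for control against 4 weeks, opposite in sign to the brightest probe, and the other gave -0.08 and 0.16.

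The 6 iron recycling members and the 4 general macrophage members were also averaged in each array, each gene relative to its mean over all arrays. The iron recycling mean ranged from -0.61 to 0.44 in the M+V-treated cochleae (median 0.20), from 0.22 to 0.82 in the control cochleae (median 0.42) and from -0.83 to -0.39 at 4 weeks (median -0.47). M+V replicate 3 was the lowest M+V array and the single cochlea at 12 weeks inside the range of the 4-week group. The next lowest M+V array was at 0.14. The general macrophage mean ranged from -0.30 to 0.25 in M+V-treated cochleae, from 0.08 to 0.40 in control cochleae and from -0.45 to -0.05 at 4 weeks. The difference between both means, iron recycling minus general, was -0.31 to 0.35 in M+V-treated cochleae, 0.09 to 0.42 in control cochleae and -0.67 to -0.22 at 4 weeks. With Cd5l and Hmox1 left out of the iron recycling mean, the same difference ran from -0.47 to 0.33 in M+V-treated cochleae, from -0.05 to 0.14 in control cochleae and from -0.20 to 0.22 at 4 weeks, and all 3 groups overlapped. Without the genes around which the set was chosen, no group of arrays stood apart in this difference.

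**Figure D3:**
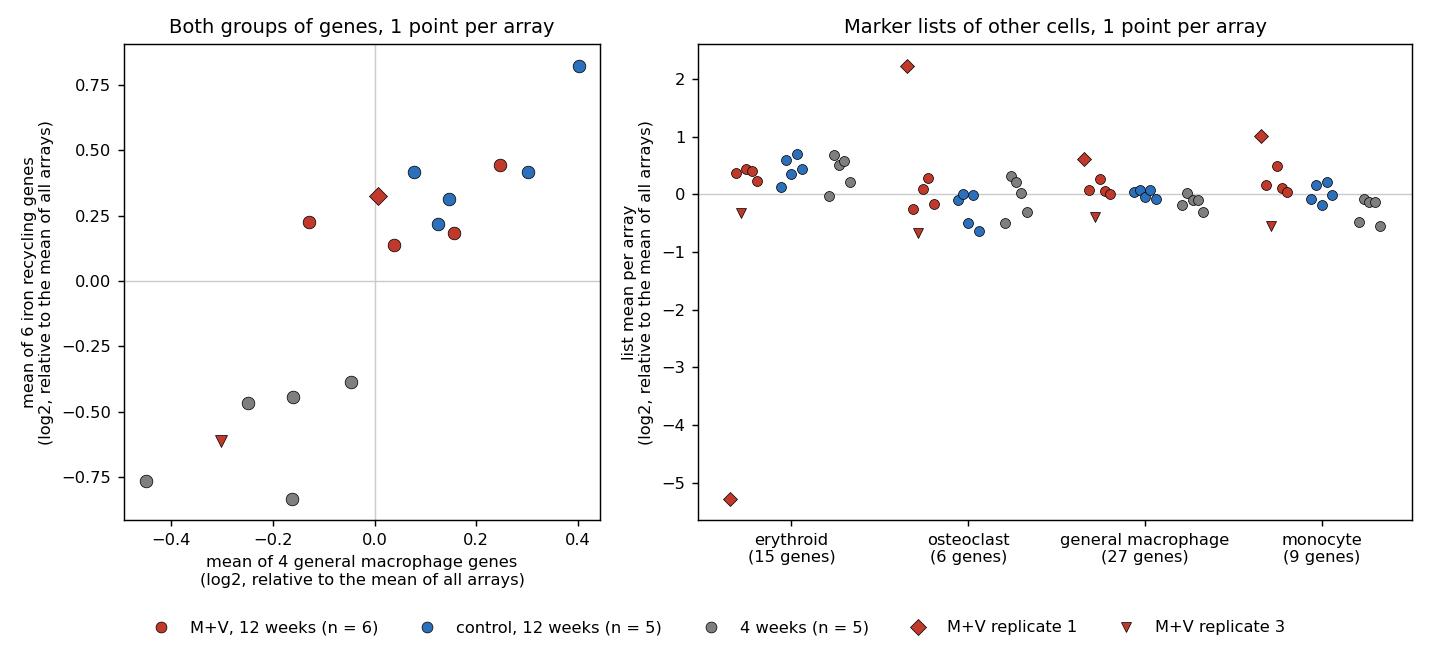
Left, mean of the 6 iron recycling genes against the mean of the 4 general macrophage genes in each array; right, means of 4 marker lists in each array (log2, each gene relative to its mean over all 16 arrays; 1 point for each cochlea of the M+V, control and 4 weeks groups). M+V replicate 3 is the lowest 12-week array for the iron recycling genes (-0.61), and M+V replicate 1 lies at -5.28 for the erythroid markers.

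M+V replicate 3 was also the lowest array for the 27 general macrophage markers (-0.40, against -0.32 to 0.61 in the other arrays of all groups) and, apart from M+V replicate 1, for the 15 erythroid markers (-0.33). Its Spic (7.23), Slc40a1 (11.07), Vcam1 (11.68), Cd163 (8.11) and Aif1 (8.32) signals were the lowest of all 16 arrays. Their part in the group differences shows in the fits without this array: the median difference of the iron recycling members between M+V and control was then -0.17, and that of the general macrophage members -0.17. Without M+V replicate 3 the log2 differences were -0.31 for Cd5l, -0.15 for Hmox1, -0.19 for Spic, -0.15 for Slc40a1, 0.01 for Vcam1, -0.17 for Aif1 and -0.04 for C1qa, each more than 1.5 times nearer to 0 than with it or of the other sign. Cd163 (-0.27), C1qb (-0.16) and C1qc (-0.22) moved less.

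**Figure D4:**
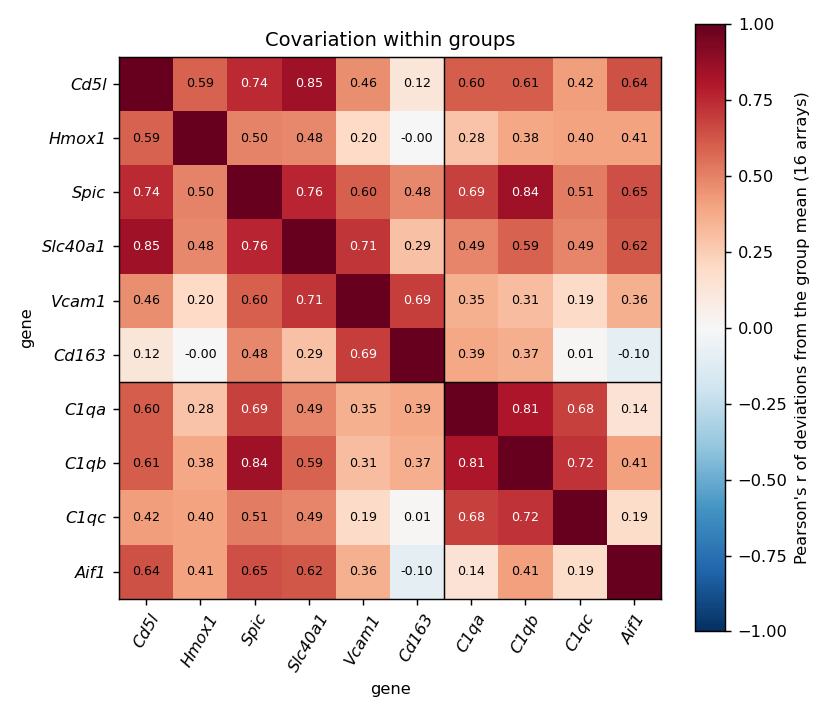
Pearson's r between the members' deviations from their group means over the 16 arrays, for each pair of the 10 genes. Cd5l and Slc40a1 (0.846) and Spic and C1qb (0.845) had the highest values, and Cd163 had values near 0 with Hmox1 and with C1qc.

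Within groups, the members varied together from cochlea to cochlea. Over the deviations of the 16 arrays from their group means, which share the array's RNA and normalization, Pearson's r was above 0 in 14 of the 15 pairs of iron recycling members (median 0.50), in 6 of the 6 pairs of general macrophage members (median 0.55) and in 23 of the 24 pairs across both kinds (median 0.41). Cd5l went with Slc40a1 (r = 0.846, Spearman's rho = 0.82), Spic with C1qb (r = 0.845, rho = 0.77) and C1qa with C1qb (r = 0.81, rho = 0.87). Cd163 went with Vcam1 (r = 0.69, rho = 0.67). Its r with Cd5l was 0.12, with Hmox1 -0.001 and with Aif1 -0.10, and single arrays set these values: without M+V replicate 1 they were 0.32, 0.11 and 0.27, and without M+V replicate 3 they were -0.11, -0.19 and -0.45. Leaving out M+V replicate 3 lowered the median r to 0.31 for pairs of iron recycling members, 0.42 for pairs of general macrophage members and 0.34 across, while the pair of Cd5l and Slc40a1 was at 0.804. These correlations are descriptions of 16 arrays. No values of other gene pairs are given beside them, so they do not set the members apart from other genes.

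The genes whose log2 signals were most like those of Cd5l over the 16 arrays were Axl, a receptor for apoptotic cells (r = 0.91), Hmox1 (0.91), Igha, the heavy chain of immunoglobulin A (0.905), H2-K1, a class I histocompatibility gene (0.905), and Flot2 (0.905). Those most like Hmox1 were Kars, a lysyl-tRNA synthetase (0.91), Cd5l (0.91), Igha (0.89), Wfdc17 (0.87) and Fbxl6 (0.87). These values carry the difference between the ages. Within the 11 cochleae at 12 weeks alone, r with Cd5l was 0.76 for Axl, 0.77 for Hmox1, 0.83 for H2-K1, 0.31 for Flot2 and 0.14 for Igha, and r with Hmox1 was 0.74 for Kars, 0.56 for Fbxl6, 0.43 for Igha and 0.42 for Wfdc17.

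Other genes of these pathways were read from lists. Of 33 general macrophage markers, 32 were on the array and 27 were tested. In M+V against 4 weeks, Sirpa, an inhibitory receptor for the self signal CD47 on red cells, rose by 0.60 on the log2 scale, and the fractalkine receptor Cx3cr1 fell by 0.41 (limma adjusted p = 0.0270 and 0.0386). No other marker passed, while 2.52% of all tested genes were called higher in this comparison, and the median of the list was 0.20. That share does not apply to the fall of Cx3cr1. The share called lower is not given, and 1129 of the 21391 tested probes passed in either direction. The call of Cx3cr1 held in 7 of the 16 fits that left out 1 array and that of Sirpa in 12, with adjusted p-values of up to 0.0932 and 0.0708. In control against 4 weeks and in M+V against control 0 of the 27 passed, with medians of 0.17 and 0.12. The M+V minus control differences were 0.12 for the growth factor receptor Csf1r, 0.18 for the lysosomal protein Cd68, -0.13 for Adgre1, -0.33 for the mannose receptor Mrc1 and 0.00 for lysozyme (Lyz2). Without M+V replicate 1 they were -0.04 for Csf1r and -0.17 for Cd68, of the other sign, and -0.11 for Adgre1, -0.33 for Mrc1 and -0.04 for Lyz2. The list's median was then 0.00, with 14 of the 27 markers below 0. Siglec1 and Vsig4, which mark some tissue macrophages, were too dim to be tested.

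Of 30 heme and iron handling genes besides the members, 28 were on the array and 25 were tested. In M+V against 4 weeks, haptoglobin (Hp) rose by 1.02, lipocalin 2 (Lcn2), which binds bacterial iron carriers, rose by 0.64, and the transferrin receptor Tfrc, which brings iron into cells and is abundant on red cell precursors, fell by 0.52 (limma adjusted p = 0.0260, 0.0480 and 0.0152). In either direction, 1129 of the 21391 tested probes passed in this comparison, and no share of genes called lower is given beside the fall of Tfrc. The call of Tfrc held in all 16 fits that left out 1 array, that of Hp in 12 and that of Lcn2 in 2. Hp and Lcn2 are abundant in neutrophil precursors. Neutrophil markers were higher in the same comparison (6 of 14 past the threshold, Lcn2 among them, against 2.52% of all tested genes). The part of those cells in the values of Hp and Lcn2 was not tested. The list's median was 0.04 in M+V against 4 weeks, 0.03 in control against 4 weeks and 0.04 in M+V against control, and 0 of the 25 passed in control against 4 weeks or in M+V against control.

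Of the enzymes and carriers next to Hmox1, the constitutive heme oxygenase Hmox2 differed between M+V and 4 weeks by 0.21, biliverdin reductase B (Blvrb) by -0.67, the heme transporter Slc48a1 by 0.04, the ferritin heavy chain Fth1 by -0.002 and the phagosomal metal transporter Slc11a1 by 0.50, none past the threshold. In control against 4 weeks the values were 0.11 for Hmox2, -0.12 for Blvrb, 0.29 for Slc48a1, 0.13 for Fth1, 0.42 for Slc11a1 and -0.40 for Tfrc. Blvrb was 9.47 in M+V replicate 1 and 11.4 to 12.6 in the other arrays, and Slc48a1 was 9.74 there and 10.01 to 10.6 in the others. The transcriptional repressor Bach1, which heme inactivates, differed by -0.09 between M+V and 4 weeks and by -0.16 between control and 4 weeks, and Nfe2l2, the activator at the same elements, by -0.02 and -0.10. Ferritin light chain, C3 and C4b are not analysed here.

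Of 21 complement genes other than C1q, 16 were on the array and 13 were tested, and 0 passed in any of the 3 comparisons (medians 0.03 for M+V against control, 0.17 for M+V and 0.08 for control relative to 4 weeks). The anaphylatoxin receptor C3ar1 differed by 0.22 between M+V and control. Of 12 genes of liver X receptor signaling, which regulates Cd5l in mouse macrophages, and of lipid efflux, 11 were on the array and 10 were tested, and 0 passed in any comparison (medians -0.02, 0.09 and 0.11 in the same order). Apoe differed by -0.03 and the cholesterol exporters Abca1 and Abcg1 by -0.16 and 0.20 between M+V and 4 weeks. Nr1h3, the macrophage liver X receptor, was too dim to be tested. In a fit without the filter its difference from 4 weeks was 0.39 in M+V and 0.16 in control.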

How the data were processed

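RNA of 16 whole left cochleae was measured on the Affymetrix mouse array the study names. The deposited log2 values were made by the authors with the MAS5 algorithm and then quantile-normalized over all arrays; software versions are not given in the sources used here. The sorted values were identical between arrays (largest difference 0), with a median of 6.90, so levels are relative to each array's distribution. Signals under 1 were set to 1 (0.869% of values). Of 45101 probes, 64 control probes were left out, and 34958 have 1 gene symbol, 932 several and 9211 none. The symbols of 34754 were matched to the reference annotation, and 0 changed.

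The methods tested probes called present in every sample of a group. Those calls were not used here, and a probe entered the tests if, in at least 1 group, all arrays had it at or above the array's median (21391 probes, 11457 genes by their brightest probe). One limma 3.58.1 model (R 4.3.3; lmFit, contrasts.fit, eBayes) with a mean per group was fitted over all 16 arrays, with two-sided tests and p-values adjusted over these probes after Benjamini and Hochberg (threshold 0.05). It was tested on simulated data first. A gene was read from its brightest tested probe, or from a fit without the filter where none was tested. Genes named are the 10 members, a fixed selection from the lists, other genes of the 4 pathway lists (general macrophage, heme and iron, complement, liver X receptor) past the threshold, and the 5 genes most correlated with Cd5l and with Hmox1. The members, lists and alternatives were chosen with earlier results of these data known. Alternatives were cyclic loess, log2(signal + 32), leaving out the filter or setting it to the 25th or 75th percentile, the methods' t-test, only the compared groups, array weights, blocks for replicate number and bioB level, each bioB level alone, the next brightest probe, and leaving out each array. Lists without M+V replicate 1 were added after the data had been seen. The number of arrays limits the precision.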

Additional observations from a re-analysis of the deposited data

Results flagged for a closer look

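Values are named here where 1 array lay far from the others of its group of 5 or 6, by Dixon's ratio of the gap to the range. Chance alone flags about 1 in 20 groups, and no explanation was tested.

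Among the members, M+V replicate 3 was the low array for Spic (7.23, next M+V array 8.17) and for the C1qb probe that is the brighter of its other probes (9.72, next 10.42), and M+V replicate 1 was the high array for Cd163 (9.62, next 8.62). C1qb was low in 4 weeks replicate 5 (9.94, next 10.26). The mean of the iron recycling members was low in M+V replicate 3 (-0.61), and so was that of the heme and iron handling genes (-0.19). The iron recycling minus general macrophage difference was low in 4 weeks replicate 1 (-0.67, next -0.34).

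Outside the members, M+V replicate 1 was far from the other M+V arrays for the erythroid markers (-5.28) and the osteoclast markers (2.23), and for Csf1r (13.95), Cd68 (11.87), Blvrb (9.47) and Slc48a1 (9.74). M+V replicate 2 was low for the endothelial markers (-0.14), and 4 weeks replicate 1 was low for Hmox2 (10.79).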

How the results depend on the processing

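The count of members past the adjusted threshold stayed at 0 for M+V against control in every setting. For M+V against 4 weeks it was 2, but 1 with the 75th percentile filter and 4 with array weights. For control against 4 weeks it was 2, but 1 with the methods' t-test, 1 with the bioB level as a block, 4 with array weights and 0 in the high bioB arrays alone, where control is a single array and the count says little. No 4-week array had a low bioB level, so no value for the ages exists there. Leaving out 1 array gave 2 to 3 members in both comparisons with 4 weeks and 0 in M+V against control. It gave iron recycling medians of -0.39 to -0.17 (M+V against control), 0.13 to 0.35 (M+V against 4 weeks) and 0.41 to 0.53 (control against 4 weeks), and general macrophage medians of -0.29 to -0.17, 0.17 to 0.29 and 0.34 to 0.43 in the same order.

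In the high bioB arrays alone the iron recycling median of M+V against control was 0.064, and Hmox1 (0.40), Vcam1 (0.20), Cd163 (0.23) and C1qa (0.14) changed sign. In M+V against 4 weeks Cd163 changed sign with the bioB block (0.23) and in the high bioB arrays alone (0.45). Leaving out 1 array gave -0.25 (without M+V replicate 1) to 0.053 (without M+V replicate 3) for Cd163, with 0.03 without 4 weeks replicate 4. It gave -0.061 (without 4 weeks replicate 5) to 0.27 (without M+V replicate 3) for Spic, with -0.03 without M+V replicate 5, and C1qb was -0.0076 without 4 weeks replicate 5. In M+V against control Vcam1 ran from -0.15 (without M+V replicate 1) to 0.011 (without M+V replicate 3). The cause was not tested.

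Residuals of same-numbered arrays had a median correlation of 0.0126 in 15 pairs, 6 of them over 0.1, and the replicate numbers were not taken as pairs. With the replicate block the counts stayed at 0, 2 and 2, the iron recycling medians were -0.35, 0.20 and 0.48, and the general macrophage medians were -0.27, 0.20 and 0.39.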

Other observations

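Other cell types were read from marker lists in the same arrays. Of 14 neutrophil and granulocyte precursor markers, 6 rose in M+V against 4 weeks, among them the granule proteins Prtn3 (log2 fold change 1.29), Ctsg (1.06) and Mpo (0.77), and 2 rose in control against 4 weeks, Prtn3 (1.03) and Ctsg (0.87). Of all tested genes, 2.52% were called higher in M+V and 0.402% in control against 4 weeks. Tmem119, which marks microglia in brain, fell in both comparisons (by 0.72 and 0.87 on the log2 scale), as 1 of 7 microglia markers tested. The list did not move as 1: 5 of the 7 were below 0 in M+V (median -0.24) and 4 in control (median -0.04) against 4 weeks. P2ry13 was above 0 in both (0.58 and 0.58). Of the 21391 tested probes, 1129 passed in M+V and 295 in control against 4 weeks, in either direction. Of 9 monocyte markers, 1 rose in M+V against 4 weeks, Plac8 (0.68). In M+V against control 6 of 6 osteoclast markers tested were above 0 (median 0.50, and 0.09 without M+V replicate 1). These genes were named after their values were seen.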
